A study of Homo sapiens with 19 samples.

Results

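Human liver organoids grown from pluripotent stem cells held a minority of cells rich in transcripts of secreted liver proteins, and these cells are described here across the libraries of organoids held in ULA (ultra-low attachment) plates. A cell was taken when it passed the cell filter (500 or more genes detected, and no more than 20% of counts from mitochondrial genes) and when AFP, AMBP, AGT, FGB and SERPINA1 together gave at least 5 unique molecular identifiers (UMIs, each a counted RNA molecule) and at least 0.3% of its UMIs. The rule found 2150 cells among the 34289 kept cells of the 5 ULA libraries, out of 120240 kept cells in all 19 libraries of the series. The working label for these cells is hepatocyte-like. Since it was met only in part by the check genes below, the cells are called SERPINA1/AFP cells here, after the leading markers of the rule.

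Every ULA organoid came from 1 wild-type line, W01, an established human pluripotent stem cell line distributed by WiCell, and received no treatment. Single-cell RNA sequencing (10x Genomics 3′ chemistry) covered organoids of day 21 (n = 3 libraries) and of day 34 (n = 2 libraries). The day 34 organoids had an added wash and 10 further minutes in trypsin before sequencing, so a difference between the days cannot be told apart from a difference in dissociation. The other 14 libraries came from day 25 organoids on an orbital shaker, untreated or exposed to TGFB1, PA, OA or their controls, and had other gene annotations. The labels give each library as a sample of its own but do not say whether the replicates were separate cultures, so p-values measure the spread between these libraries, which may be technical.

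Hepatocytes secrete most plasma proteins, among them albumin, transferrin, α1-antitrypsin (the product of SERPINA1), fibrinogen and the apolipoproteins. The yolk sac and the fetal liver make α-fetoprotein (AFP), which gives way to albumin as the liver matures. Liver and intestinal epithelium share an endodermal origin and a group of transcription factors with HNF4A at its head, and both assemble apolipoproteins into lipid particles. CDX1 and CDX2 are the homeobox factors that specify intestine. LGALS4, PHGR1, CDH17 and TSPAN8 are gut epithelial genes for a galectin, a small mucosal protein, an intestinal cadherin and a tetraspanin.

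AFP and ALB lie next to each other on chromosome 4, and the first was abundant in SERPINA1/AFP cells while the second was scarce. LGALS4 and MUC2 (an intestinal mucin) are 2 of the gut genes that were lower on day 34. The 250 bases before each gene's start are therefore shown from RefSeq on GRCh38.p14, 5′ to 3′ on the gene's strand. Capitals mark 2 motifs searched on both strands, an HNF1 core motif (GTTAAT or its reverse complement ATTAAC) and a CDX site (TTTATG or CATAAA). They do not overlap each other here. Among all 35116 RefSeq promoter windows of this length, 6.23% held the first and 9.64% the second. The windows are chr4:73435971-73436220 (plus strand) for AFP, chr4:73404037-73404286 (plus) for ALB, chr19:38812946-38813195 (minus) for LGALS4 and chr11:1074624-1074873 (plus) for MUC2.
AFP: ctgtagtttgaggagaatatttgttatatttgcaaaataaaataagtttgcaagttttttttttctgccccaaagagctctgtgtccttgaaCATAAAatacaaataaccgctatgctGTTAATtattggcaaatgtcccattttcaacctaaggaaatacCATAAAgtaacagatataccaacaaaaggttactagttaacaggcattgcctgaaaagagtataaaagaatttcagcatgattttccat
ALB: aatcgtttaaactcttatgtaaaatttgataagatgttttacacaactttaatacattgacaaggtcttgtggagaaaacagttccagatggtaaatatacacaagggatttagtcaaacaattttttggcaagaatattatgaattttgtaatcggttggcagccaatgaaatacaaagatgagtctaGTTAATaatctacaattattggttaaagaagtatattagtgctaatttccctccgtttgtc
LGALS4: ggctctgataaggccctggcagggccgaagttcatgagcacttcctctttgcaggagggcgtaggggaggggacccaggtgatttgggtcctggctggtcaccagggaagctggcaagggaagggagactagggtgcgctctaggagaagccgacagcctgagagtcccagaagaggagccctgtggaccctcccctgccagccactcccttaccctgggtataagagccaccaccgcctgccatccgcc
MUC2: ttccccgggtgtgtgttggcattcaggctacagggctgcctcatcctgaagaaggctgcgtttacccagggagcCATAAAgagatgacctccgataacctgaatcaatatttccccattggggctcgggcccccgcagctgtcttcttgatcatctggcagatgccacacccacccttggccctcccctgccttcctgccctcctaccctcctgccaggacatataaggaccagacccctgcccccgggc
The AFP window held 1 HNF1 core motif, 132 bases before the start, and 2 CDX sites, 158 and 89 bases before it. The ALB window held 1 HNF1 core motif at 61 bases and no CDX site. The MUC2 window held 1 CDX site at 176 bases, and the LGALS4 window held neither motif. These matches are descriptions of the letters alone.

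The 5 ULA libraries held between 73799160 and 92522222 UMIs. Kept cells numbered 5902, 5335 and 6299 in day 21 replicates 1, 2 and 3, and 4326 and 12427 in day 34 replicates 1 and 2. The SERPINA1/AFP cells were deeper than most cells on day 21, with a median of 19561.5, 20210 and 18818 UMIs, and had 14112 and 8698 on day 34. Their median mitochondrial share was 8.24%, 7.48% and 12.7% on day 21 and 5.78% and 7.73% on day 34. Pairs of libraries shared between 9 and 40 cell barcodes, and no pair shared more than 1 barcode of a SERPINA1/AFP cell. Day 34 replicate 1 held only 23 of these cells (444307 UMIs in all), so values that rest on it carry a larger counting error.

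SERPINA1/AFP cells made up 10.5%, 6.82% and 9.40% of kept cells in the 3 day 21 libraries (622, 364 and 592 cells). The exact Clopper-Pearson 95% intervals, which cover counting error only, were 9.77% to 11.4%, 6.16% to 7.53% and 8.69% to 10.1%. On day 34 the shares were 0.532% (23 cells, 0.337% to 0.797%) and 4.42% (549 cells, 4.06% to 4.79%). Both day 34 libraries lay below all 3 day 21 libraries, and they differed from each other more than any day 21 pair did. The means were 8.92% ± 1.90 (SD, n = 3) and 2.47% ± 2.75 (SD, n = 2), a difference of -6.45 percentage points. The exact two-sided permutation test over libraries gave p = 0.1, the smallest that 3 against 2 libraries allow. The difference was -4.50 points without day 34 replicate 1 and -8.39 without day 34 replicate 2. With a marker sum of at least 10 UMIs and 1% it was -0.68 points, without AFP in the rule -3.21 and without SERPINA1 -2.57. The shaker libraries, which use another gene annotation, held far more cells that meet the same rule (21.5% to 85.1% of kept cells, median 63.8%, 14 libraries).

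**Figure D1:**
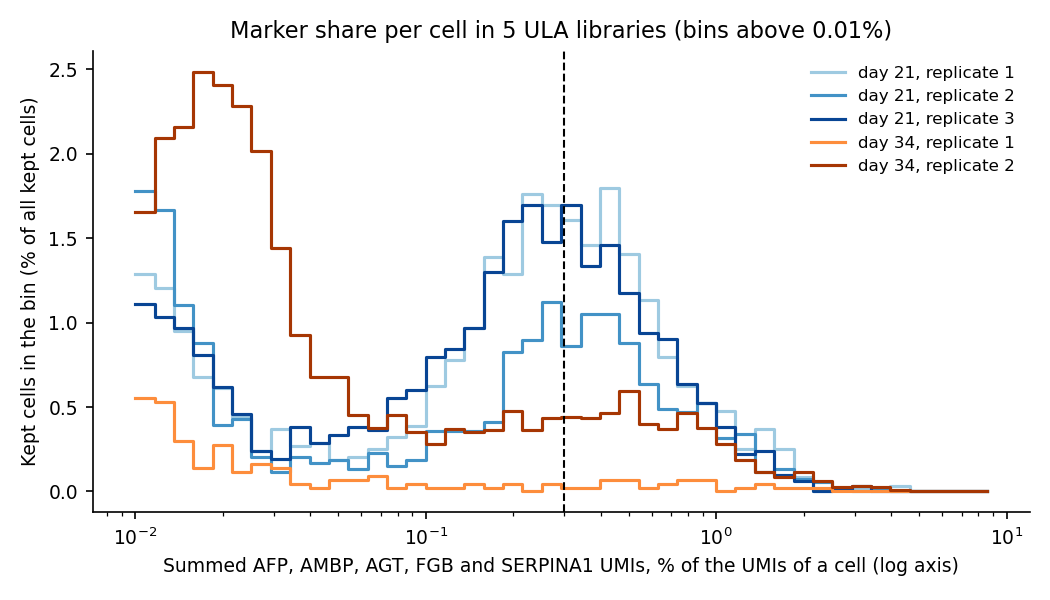
Share of kept cells (y axis, percent) by the summed share of the 5 marker genes in a cell's UMIs (x axis, percent), 1 line per library, with the rule's cut at 0.3% marked. Each day 21 line has a broad hump that the cut divides, and both day 34 lines lie lower there.

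The cut at 0.3% fell inside a continuous range of marker shares, most clearly on day 21. Just inside it, between 0.3% and 0.36%, lay 108, 54 and 118 cells on day 21 and 1 and 60 on day 34. Just outside, between 0.24% and 0.3%, lay 142, 82 and 128 cells on day 21 and 2 and 72 on day 34. The cells not taken therefore include many with similar marker levels, chiefly on day 21. No marker UMI at all was seen in 67.2%, 74.9% and 67.5% of kept cells on day 21 and in 89.6% and 67.5% on day 34. These values chose the cells and are given with no test.

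SERPINA1, which encodes the main protease inhibitor of plasma, carried most of the marker sum, at 60.9%, 58.9% and 49.3% of marker UMIs on day 21 and 92.6% and 80.3% on day 34. AFP carried 26.3%, 27.7% and 36.4% on day 21 and 5.03% and 9.27% on day 34. The balance between the leading markers thus shifted toward SERPINA1 on day 34 in both libraries. In CPM, a depth-normalised count computed from the summed counts of a library, SERPINA1 stood at 4205, 4454 and 3289 on day 21 and 7291 and 5405 on day 34. AFP stood at 1819, 2094 and 2429 and then 396 and 624 CPM. FGB, the fibrinogen β chain, stood at 455, 525 and 568 and 26.8 and 178 CPM, and both AFP and FGB had day 34 values below every day 21 value. AMBP, the precursor of α1-microglobulin, had 348, 402 and 303 CPM on day 21 and 86.7 and 323 on day 34. AGT, angiotensinogen, had 82.1, 93.4 and 78.9 and 76.4 and 199 CPM, and the days overlapped for both.

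At least 3 of the 5 markers were detected in 97.4%, 97.0% and 96.5% of SERPINA1/AFP cells on day 21, but in 52.2% and 78.7% on day 34. A single marker met the rule in 2, 0 and 4 cells on day 21 and in 7 and 37 cells on day 34. Cells with fewer than 3 markers were 11 of 23 and 117 of 549 on day 34, and SERPINA1 gave 97.3% and 92.5% of their marker UMIs. With SERPINA1 left out of the rule, day 34 replicate 1 held 0 cells and replicate 2 held 91. Day 34 cells were also shallower, and the part of depth in these counts was not tested.

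The label was checked with 7 further hepatocyte genes, ranked by mean CPM over the 5 libraries among 57348 genes. APOA1 (rank 20, 2184 CPM), APOA2 (rank 26, 1900.3 CPM), TTR (rank 219, 395 CPM) and APOB (rank 526, 210.4 CPM) were abundant. HNF4A, the hub transcription factor, was present (rank 3558, 36.9 CPM). ALB, the albumin gene, was scarce at rank 6544, with 17.5, 30.3 and 29.6 CPM on day 21 and 2.06 and 3.64 on day 34. TF, the transferrin gene, was close to absent, with 1.44, 2.88 and 2.02 CPM on day 21 and 0 and 0.165 on day 34. An ALB UMI was found in 104, 73 and 102 cells on day 21 and in 1 and 16 on day 34. The label was therefore met by 5 of the 7 check genes and not by ALB or TF. Apolipoproteins and HNF4A are shared by liver and gut, as set out above, so this count does not tell liver from gut. TTR averaged 286 CPM in the cells without gut UMIs described below and 587 in those with them.

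**Figure D2:**
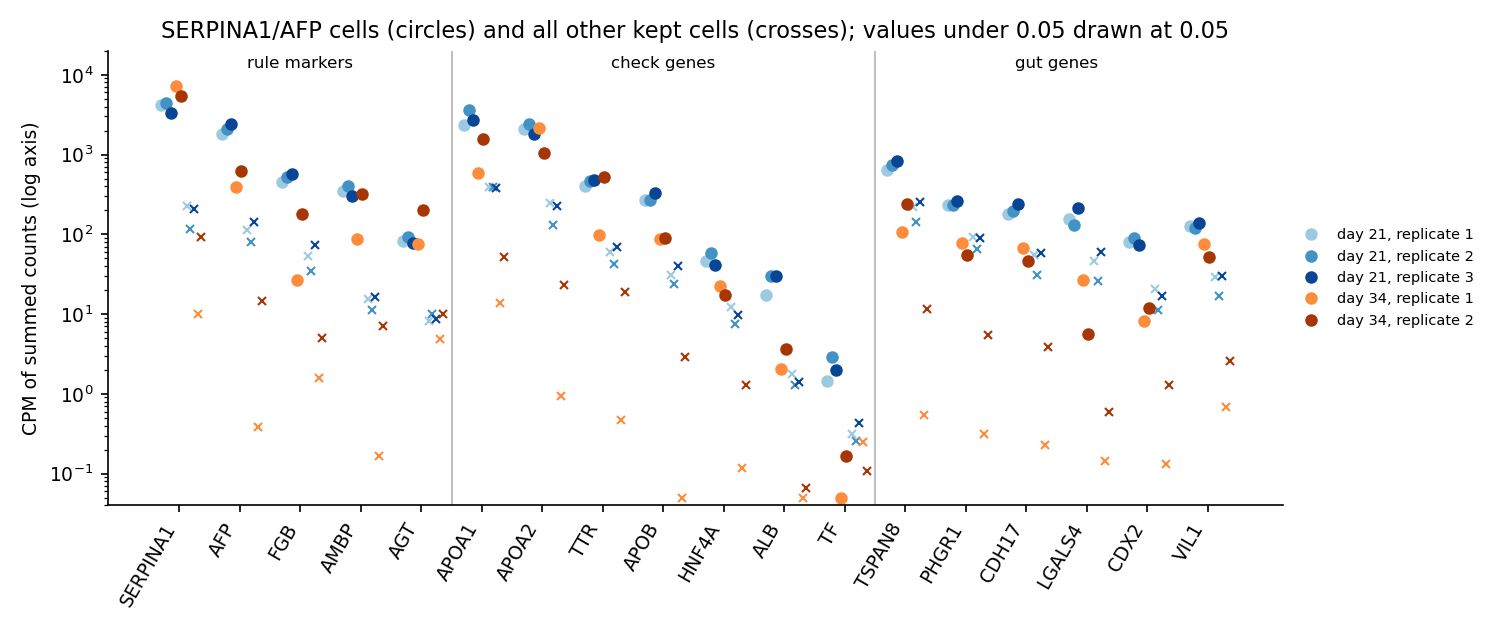
CPM of summed counts (log axis) for the rule markers, the check genes and gut genes. Circles are SERPINA1/AFP cells and crosses all other kept cells, 1 per library, with values under 0.05 drawn at 0.05. ALB and TF lie lowest among the liver genes, and all 4 gut genes of the rule are lower on day 34.

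Several genes outside the rule stood far above their level in all other kept cells of the same libraries. A ratio of mean CPM describes these cells and is no test, since marker genes chose them. ITIH2 (an inter-α-trypsin inhibitor chain) had 110.6 against 3.66 CPM, a ratio of 30.2. It is on a list of 20 plasma carrier genes, of which 7 averaged at least 10 CPM in SERPINA1/AFP cells and 2 had no counts. In the cells without and with gut UMIs described below, AHSG averaged 0.207 and 0.292 CPM and ITIH4 0.759 and 0.095. SERPINA5 (protein C inhibitor) had a ratio of 27.8, RELN (reelin) 22.6, HABP2 (a hyaluronan-binding serine protease) 17.9 and CP (ceruloplasmin) 15.3. HHEX, a homeobox factor of early liver budding, had 63.0 against 3.19 CPM, a ratio of 19.8. AGTR1, the angiotensin receptor, had 50.9 against 1.30 CPM, a ratio of 39.2, and C3, the central complement component, 163 against 11.1 CPM. Among abundant genes, CKB, a creatine kinase, had 5494 against 943 CPM, SPINK1, a pancreatic and intestinal trypsin inhibitor, 3148 against 240.3, and FABP1, the liver and gut fatty acid-binding protein, 2477 against 599.

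Gut genes were widely co-expressed in these cells. Each cell was thinned to 3000 UMIs to equalise depth, which left out 18, 5 and 22 shallower cells on day 21 and 1 and 20 on day 34. At least 1 UMI of LGALS4, PHGR1, CDH17 or TSPAN8 was then seen in 52.98%, 55.7% and 56.8% of SERPINA1/AFP cells on day 21 (exact 95% intervals 48.9% to 57.0%, 50.4% to 60.9% and 52.7% to 61.0%). On day 34 it was seen in 45.5% (10 of 22 cells, 24.4% to 67.8%) and 30.1% (26.2% to 34.2%). Both day 34 shares lay below all day 21 shares, although the interval of replicate 1 spans the day 21 values. The background in mesenchymal cells of the same libraries, chosen by collagen and matrix genes in the same form of rule, was 3.54%, 2.90% and 3.67% on day 21 and 0.280% and 2.88% on day 34. In the kept cells of neither class, leaving out those that met the same form of rule on gut genes, it was 11.66%, 6.32% and 11.53% on day 21 and 0.476% and 3.00% on day 34. The cells left out, gut-like cells outside the marker rule, numbered 116, 69 and 141 on day 21 and 0 and 9 on day 34. AFP was seen after thinning in 75.9%, 75.4% and 78.05% of these gut-like cells on day 21. In SERPINA1/AFP cells it was seen in 87.6%, 88.9% and 90.7%. In day 34 replicate 2 it was seen in 33.3% of the 9 gut-like cells and in 51.04% of SERPINA1/AFP cells. AFP together with gut genes was thus also found outside the marker rule. The mesenchymal cells had median depths of 9585.5, 9228 and 9295.5 UMIs on day 21 and 15771 and 5184 on day 34 before thinning. Without thinning, the shares of SERPINA1/AFP cells with a gut UMI were 78.6%, 78.8% and 76.7% on day 21 and 52.2% and 43.9% on day 34.

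The mean shares after thinning were 55.2% ± 1.99 (SD, n = 3) on day 21 and 37.8% ± 10.9 (SD, n = 2) on day 34. The difference was -17.4 percentage points, with an exact two-sided permutation p of 0.1, the smallest possible. It was -25.1 points without day 34 replicate 1 and -9.72 without day 34 replicate 2. Leaving AFP out of the marker rule brought it to -4.56 points (exact permutation p 0.7), and leaving out SERPINA1 to -5.26 (exact permutation p 0.5). The latter rule leaves 1 library on day 34, where the smallest possible p is 0.25. Requiring at least 3 of the 5 markers brought it to -30.8 points, and leaving cells unthinned to -30.0.

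**Figure D3:**
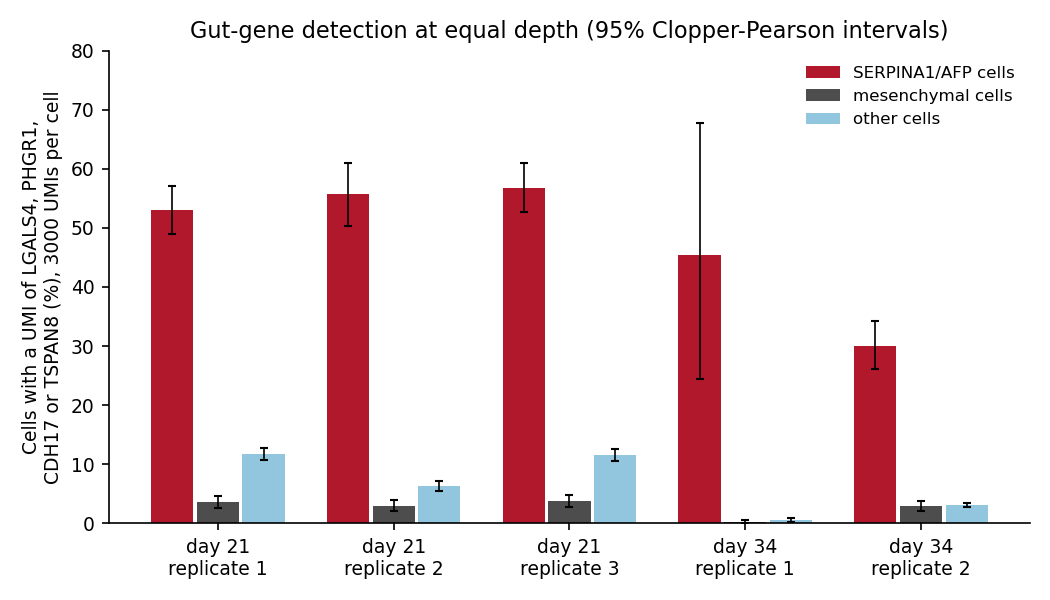
Share of cells (y axis, percent) with at least 1 UMI of the 4 gut genes after thinning to 3000 UMIs, by library, in SERPINA1/AFP cells, mesenchymal cells and other cells, with exact 95% intervals. Other cells are the kept cells of neither class, without those that met the same form of rule on gut genes. SERPINA1/AFP cells lie between 30.1% and 56.8%, and mesenchymal cells at or under 3.67%.

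TSPAN8 was the most frequent of the 4 gut genes after thinning in 4 of 5 libraries and level with PHGR1 in day 34 replicate 1. It was seen in 41.4%, 43.2% and 44.6% of SERPINA1/AFP cells on day 21 and in 27.3% and 25.9% on day 34. CDH17 was seen in 32.3%, 35.9% and 35.3% and then in 18.2% and 9.64%. PHGR1 was seen in 18.2%, 20.9% and 16.7% on day 21 and in 27.3% and 6.24% on day 34, and LGALS4 in 11.4%, 9.75% and 11.8% and then in 18.2% and 1.70%. For PHGR1 and LGALS4 the 22 thinned cells of day 34 replicate 1 lay above the day 21 range and replicate 2 lay below it. At least 3 UMIs of the 4 genes were found in 184, 113 and 181 cells on day 21 (30.5%, 31.5% and 31.8%) and in 6 and 56 cells on day 34 (27.3% and 10.6%).

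Some cells met the marker rule for both lineages. Applied in the same form to the 4 gut genes, the rule was also met by 60, 43 and 67 SERPINA1/AFP cells on day 21 and by 0 and 24 on day 34. By contrast, 5, 0 and 2 on day 21 and 0 and 5 on day 34 also met the mesenchymal rule. Scrublet, a doublet caller, was set to mark a fixed share of kept cells by score. This share was 5.27%, 5.89% and 5.70% on day 21 and 3.62% and 10.7% on day 34. Marked were 36, 12 and 22 SERPINA1/AFP cells on day 21 and 0 and 51 on day 34, and none of those that met the gut rule. The caller's own threshold took 0.0169%, 0% and 0% of kept cells on day 21 and 0% and 13.9% on day 34. Whether the cells that met both rules are doublets was not tested. A doublet of 2 cells with similar profiles is one this caller may miss.

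Cells with gut UMIs differed from those without in many other genes. After thinning, 284, 159 and 246 cells on day 21 and 12 and 370 on day 34 had no gut UMI, and were set beside the 184, 113, 181, 6 and 56 cells with at least 3. The split used a readout, so what follows is a description over summed counts. Of 3049 genes with a mean of at least 50 CPM in either subset, 461 were higher and 695 lower in the gut-positive cells of all 5 libraries. At the floor of 10 CPM used for the gene lists below, 10.9% of 9021 genes were higher in all 5 and 21.5% lower. Of the 1940 lower ones, 1089 had 0 counts in the 6 gut-positive cells of day 34 replicate 1, so for them that library adds little. In the other 4 libraries 29.7% were higher in each and 26.5% lower.

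The gut-positive cells also had higher levels of many other gut epithelial genes. Of 23 other gut genes with at least 10 CPM, 14 were higher in all 5 libraries and 0 lower, and 19 were higher in the 4 libraries other than day 34 replicate 1. FABP2, the intestinal fatty acid-binding protein, averaged 128 CPM against 0.253. RBP2, the intestinal retinol-binding protein, averaged 543 against 1.37 CPM, MUC13 (a membrane mucin) 312 against 2.65 and CEACAM5 (carcinoembryonic antigen) 238 against 1.49. TFF3, a goblet cell trefoil factor, averaged 434 against 48.8 CPM and was higher in all 5 libraries. SI, the sucrase of mature enterocytes, was scarce in both subsets, at 1.22 and 1.12 CPM. Lipid-particle genes went the same way, with 5 of 9 apolipoprotein list genes higher in all 5 libraries and 0 lower, and 7 higher in those 4. APOA4 averaged 597 against 1.28 CPM, and APOA1 5334 against 836. MTTP, the lipid transfer protein that loads APOB, averaged 422 against 78.7 CPM.

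Fetal liver genes were higher in the gut-negative cells. Of 13 genes on that list, 8 were lower in the gut-positive cells of all 5 libraries and 0 higher, and 9 were lower and 1 higher in the 4 libraries other than day 34 replicate 1. IGF2, DLK1, SPP1, RELN, TTYH1 and ONECUT1 had 0 counts in the 6 gut-positive cells of that replicate. IGF2, the fetal growth factor, averaged 163 CPM without gut UMIs and 26.4 with them, and DLK1, a marker of fetal hepatoblasts, 119.9 and 19.4. SPP1 (osteopontin) averaged 735 and 16.6 CPM, RELN 199 and 14.7, and TTYH1 (a chloride channel) 117 and 12.8. ONECUT1, a factor of hepatobiliary development, averaged 32.5 CPM without gut UMIs and 4.10 with them. PROX1, a hepatoblast homeobox factor, averaged 122 and 74.5. CEBPA and HNF4A went the other way, at 18.6 against 78.8 and 19.3 against 55.8 CPM. HNF4A had 0 counts in the 6 gut-positive cells of day 34 replicate 1. Of 20 hepatocyte transcription factors with at least 10 CPM, 8 were higher in the gut-positive cells of all 5 libraries (40.0%, against 10.9% of all genes). Another 5 were lower in all 5 (25.0%, against 21.5%). In the 4 libraries other than day 34 replicate 1, 11 were higher (55.0%, against 29.7%) and 5 lower (25.0%, against 26.5%).

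The marker genes themselves were unevenly split. Per cell thinned to 3000 UMIs, SERPINA1 averaged 15.7, 16.0 and 11.7 UMIs in gut-negative cells on day 21, against 7.62, 7.85 and 6.31 in gut-positive cells. On day 34 it averaged 33.0 and 19.9 against 22.0 and 10.8. AFP averaged 4.82, 4.75 and 5.19 against 5.15, 5.51 and 6.81 on day 21, and 1.58 and 1.45 against 0.5 and 5.98 on day 34. SERPINA1 was lower in the gut-positive cells of every library and AFP higher in 4 of 5. Both are part of the sum that chose the cells, so a cell low in one had to be high in another, and these values are no independent finding. Gut-positive cells had median depths of 21274.5, 22717 and 24288 UMIs on day 21 and 8011.5 and 8775.5 on day 34, against 18929.5, 18249, 16906, 21806 and 9211 in gut-negative cells, and thinning fixed only the split, not the summed counts.

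Between the days, 1767 of 14970 genes tested in SERPINA1/AFP cells passed an adjusted p of 0.05 (11.8%, edgeR quasi-likelihood test with Benjamini-Hochberg adjustment). Of these, 1002 were higher on day 34 (6.69%) and 765 lower (5.11%), and the median log2 fold change of all genes tested was -0.02. The list counts below stand beside those shares. A gene that reached the count filter on 1 day only entered the test through that day's counts, so the counts are descriptions of the genes tested. On day 21 only, this held for 4 of 25 other gut genes, 6 of 16 cytochrome and conjugation genes, 3 of 16 urea cycle and amino acid genes, 3 of 18 fatty acid genes, 2 of 9 bile acid and transport genes, 2 of 11 plasma carrier genes, 1 of 11 coagulation genes, 1 of 12 complement genes, 2 of 5 acute phase genes, 2 of 7 genes of the VTCN1 and GABRP list and 2 of 11 mesenchymal genes. On day 34 only, it held for 2 of 12 complement genes and for 1 gene each of the acute phase, other gut, fetal liver and fatty acid lists. It held for 0 genes of the apolipoprotein, transcription factor, immediate early, sterol, glycolysis and cell cycle lists. The count moved with single libraries. It was 618 without day 21 replicate 1, 1096 without day 21 replicate 2, 710 without day 21 replicate 3, 3269 without day 34 replicate 1 and 958 without day 34 replicate 2. The share of higher calls was 56.7%, against 69.1% without day 21 replicate 1 and 46.9% without day 34 replicate 2. The count was 420 in cells with none of the 4 gut genes among all their UMIs, of which 71.4% were higher. These 133, 77, 138, 11 and 308 cells, called cells with no gut UMI from here on, were taken before thinning, so they are fewer than the gut-negative cells above, and the choice used a measured value and depends on depth. A rule without SERPINA1 leaves 0 cells in day 34 replicate 1, so each value given for it below rests on 1 day 34 library, which is assumed to vary like the day 21 libraries.

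**Figure D4:**
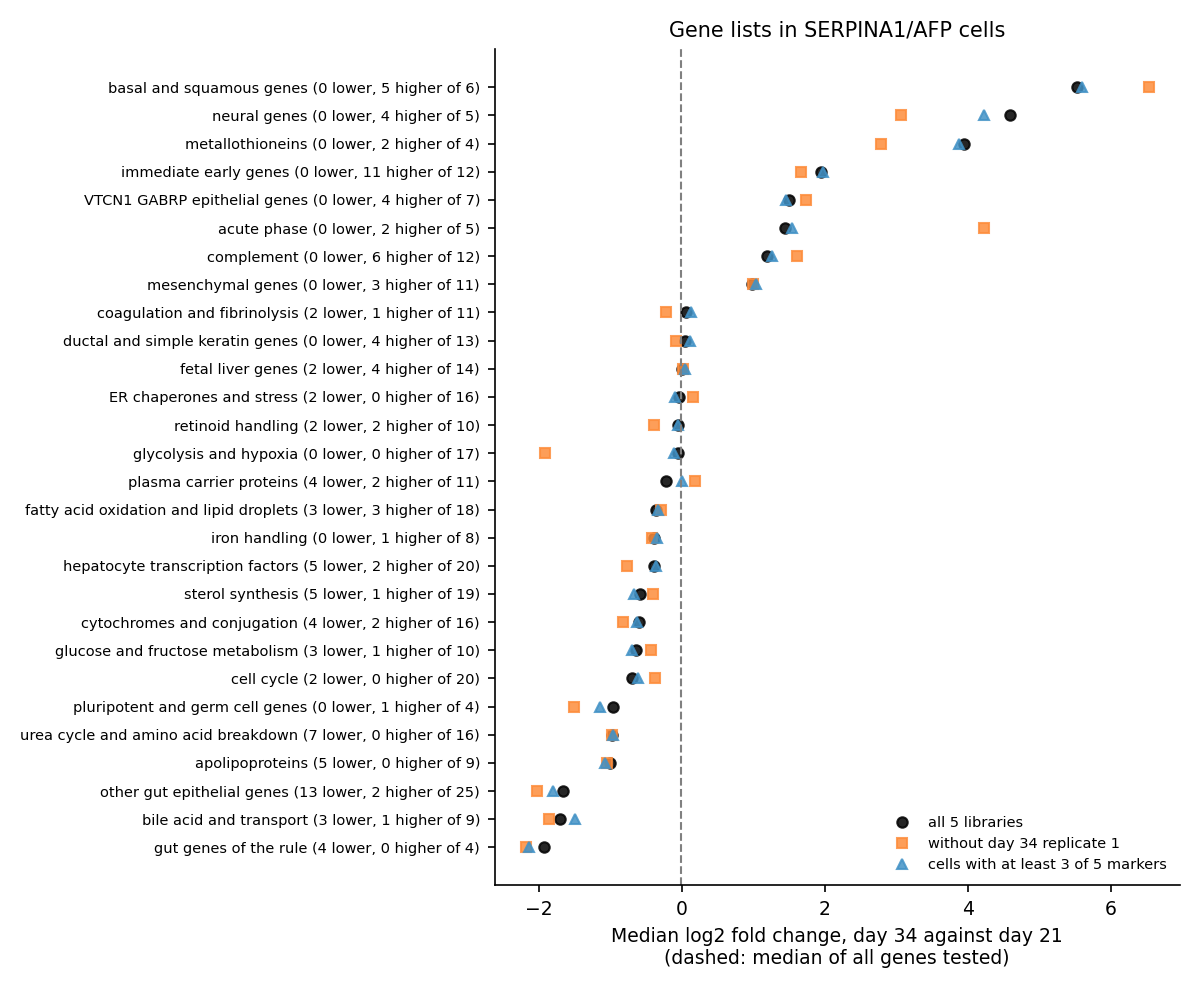
Median log2 fold change, day 34 against day 21 (x axis), of each gene list in SERPINA1/AFP cells, with all 5 libraries, without day 34 replicate 1, and in cells with at least 3 of 5 markers. Labels give the number of list genes called lower and higher of those tested. Gut and lipid-particle lists lie left of the median of all genes tested, and the immediate early and complement lists lie right of it. The basal and squamous, neural and metallothionein lists hold genes tested only through their day 34 counts.

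Gut genes were lower on day 34. All 4 gut genes of the rule passed the test, with a median log2 fold change of -1.93, and of 25 other gut genes 13 were lower and 2 higher (median -1.65). Without day 34 replicate 2, 3 of these 25 were lower, with a median of -1.10. Without SERPINA1 in the rule 3 were lower and 5 higher (median -0.73), and at 10 UMIs and 1% 2 were lower and 3 higher of 13 tested. In cells with no gut UMI, 1 was lower and 2 higher of 11 tested. TSPAN8 (chromosome 12, 71125085 to 71441898 on GRCh38) had 631, 732 and 837 CPM on day 21 and 107 and 241 on day 34. Its log2 fold change was -1.99, with an SE of 0.33 and an edgeR adjusted p of 0.0032, and the changes below are on the same scale. PHGR1 (chromosome 15, 40351033 to 40356434) had 234, 234 and 260.2 and then 78.4 and 54.6 CPM, and fell by 1.88 (SE 0.28, edgeR adjusted p 0.0016). LGALS4 (chromosome 19, 38801671 to 38812945) had 156, 132 and 214 CPM and then 26.8 and 5.62. It fell by 4.12 (SE 0.56, edgeR adjusted p 0.001), and by 2.52 without day 34 replicate 2. No day 34 library reached a day 21 value for any of these genes. Among all genes tested, 26.1% had every day 34 value below every day 21 value and 18.2% had every one above.

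The intestinal transcription factors fell with them. CDX2 (chromosome 13, 27960918 to 27969315) had 80.5, 89.6 and 72.8 CPM on day 21 and 8.26 and 11.9 on day 34. It fell by 2.83 (SE 0.27, edgeR adjusted p 0.00013), and CDX1 (chromosome 5, 150166778 to 150184558) by 3.19 (SE 0.28, edgeR adjusted p 8.4e-05), and both calls held in all 5 fits that left out 1 library. VIL1, a microvillus protein, had 128, 122 and 140.4 CPM and then 76.4 and 52.2. It fell by 1.04 (edgeR adjusted p 0.024), but lost the call in 4 of the 5 fits, with adjusted p 0.12 without day 21 replicate 1, 0.063 without day 21 replicate 2, 0.12 without day 21 replicate 3 and 0.21 without day 34 replicate 2. MUC2 had 9.09, 13.3 and 20.7 CPM on day 21 (462 counts in all) and 2.06 and 0 on day 34 (1 count). It reached the count filter on day 21 only, so it entered the test through that day's counts and its values are a description. Its log2 fold change was -6.37, but -2.67 without day 34 replicate 2, and DESeq2 did not call it (adjusted p 0.065). OLFM4, a marker of intestinal crypt cells, went the other way, with 1.06, 0.750 and 5.96 CPM on day 21 and 55.7 and 138 on day 34. It reached the count filter on day 34 only, so no p-value is given for its rise of 5.34. At least 3 UMIs were found in 2 of 23 and 52 of 549 cells on day 34.

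The gut values moved with the marker rule. Under the main rule without day 34 replicate 1, the median was -2.18 for the 4 gut genes of the rule and -2.02 for the 25 other gut genes. The rule without SERPINA1, which also loses that library, gave -0.30 and -0.73. Under that rule TSPAN8 had a log2 fold change of 0.16 (edgeR adjusted p 0.78) and PHGR1 one of 0.57 (edgeR adjusted p 0.39). PHGR1 also lost its call without AFP in the rule (edgeR adjusted p 0.17) and at 10 UMIs and 1% (edgeR adjusted p 0.52). The same genes were lower on day 34 in the other kept cells of the organoids as well. TSPAN8, for example, stood there at 219.7, 141 and 253 CPM on day 21 and 0.537 and 11.6 on day 34. It fell further there than in SERPINA1/AFP cells (difference of log2 fold changes 3.48, edgeR adjusted p 0.012). Those other cells included 116, 69 and 141 gut-like cells outside the marker rule on day 21, and 0 and 9 on day 34. These gut-like cells carried 7824, 5363 and 8985 TSPAN8 UMIs on day 21 and 197 in day 34 replicate 2. The part of their smaller number in the steeper fall was not tested.

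**Figure D5:**
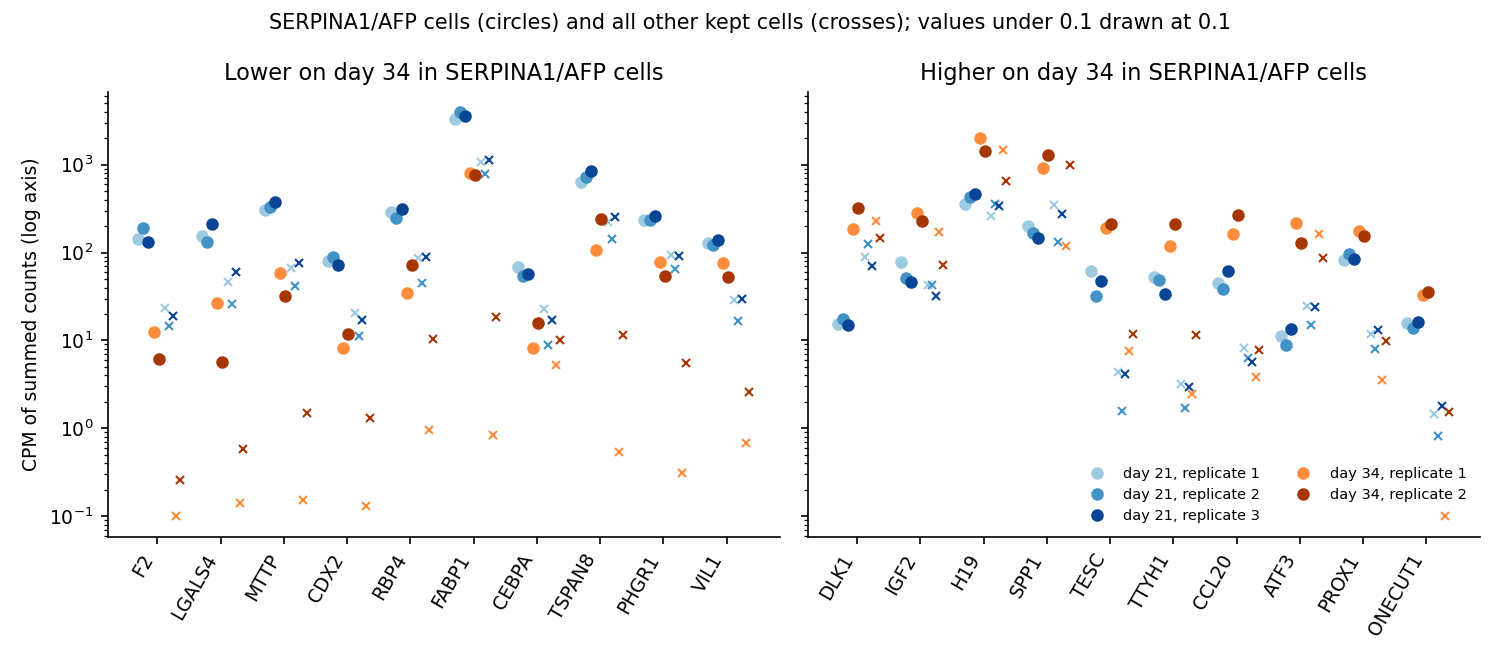
CPM of summed counts (log axis) by library for genes called between the days in SERPINA1/AFP cells, with genes lower on day 34 on the left and genes higher on day 34 on the right; circles are SERPINA1/AFP cells and crosses all other kept cells. For F2 the day 21 circles lie at 133 to 191 CPM and the day 34 circles at 6.12 and 12.4.

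Lipid-particle and several plasma protein genes were also lower on day 34. Of 9 apolipoprotein list genes tested, 5 were lower and 0 higher (median -1.01), and 3 were lower without each day 21 replicate in turn. Without SERPINA1 in the rule the list turned, with 3 higher and 2 lower (median 0.36), and at 10 UMIs and 1% it gave 1 higher and 3 lower. MTTP (chromosome 4, 99564081 to 99623997) had 301, 332 and 375 CPM on day 21 and 57.8 and 31.9 on day 34. It fell by 2.99 (SE 0.34, edgeR adjusted p 0.00037). In day 34 replicate 1, 27 of its 28 UMIs came from 2 cells. APOM, which carries sphingosine phosphate on lipoproteins, fell by 2.51 (SE 0.30, edgeR adjusted p 0.00047), from 51.3, 73.4 and 59.6 to 6.19 and 11.6 CPM. Both held in all 5 fits that left out 1 library. APOA1, the main protein of high-density lipoprotein, had 2364, 3649.7 and 2741 CPM and then 584 and 1582. It fell by 1.39 (SE 0.41, edgeR adjusted p 0.047), a call lost without each day 21 replicate in turn (adjusted p 0.15, 0.16 and 0.14), and its value was -0.92 without day 34 replicate 1 and -2.21 without day 34 replicate 2. Without SERPINA1 in the rule, and so with day 34 replicate 2 alone, it was 0.97 (edgeR adjusted p 0.015). APOA2 and TTR did not pass, with log2 fold changes of -0.32 (edgeR adjusted p 0.62) and -0.46 (edgeR adjusted p 0.56).

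Of 11 coagulation genes tested 2 were lower and 1 higher (median 0.06). F2, the prothrombin gene (chromosome 11, 46719196 to 46739506), had 144, 191 and 133 CPM on day 21 and 12.4 and 6.12 on day 34. It fell by 4.44 (SE 0.38, edgeR adjusted p 8e-05) and passed in all 16 alternatives. At least 3 F2 UMIs were found in 265, 193 and 220 cells on day 21 and in 1 and 0 on day 34. FGG, the fibrinogen γ chain, had 117, 155 and 119 CPM on day 21 and 0 and 18.2 on day 34. It reached the count filter on day 21 only, so no p-value is given for its fall of 3.17, which was 1.09 at 10 UMIs and 1%. Its 0 in day 34 replicate 1 is of 444307 UMIs.

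Of 11 plasma carrier genes tested, 4 were lower and 2 higher (median -0.22). Without each day 21 replicate in turn, 2 were lower and 1 higher, and the median was -2.07 without day 34 replicate 2 and 0.19 without day 34 replicate 1. Without SERPINA1 in the rule 1 was lower and 3 higher (median 0.61). RBP4, the plasma retinol carrier, had 287, 249.7 and 314 CPM and then 35.1 and 71.7, and fell by 2.25 (SE 0.30, edgeR adjusted p 0.00087). In cells with no gut UMI its value was 0.25 (edgeR adjusted p 0.82), and 0 of the 8 plasma carrier genes tested there passed either way. GC, the vitamin D-binding protein of fetal and adult liver (chromosome 4, 71741696 to 71804041), rose from 1.29, 1.00 and 2.54 to 16.5 and 78.4 CPM, a rise of 5.16 (SE 0.44, edgeR adjusted p 8e-05), and 3.43 without day 34 replicate 2, where it rests on 8 UMIs of replicate 1. A GC UMI was present in 15, 7 and 18 cells on day 21 and in 2 and 144 on day 34.

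Among 20 hepatocyte transcription factors, 5 were lower and 2 higher (median -0.39). The lower calls numbered 1, 3 and 2 without day 21 replicates 1, 2 and 3, and 8 and 1 without day 34 replicates 1 and 2. Without AFP in the rule 1 was lower and 1 higher (median -0.23), and without SERPINA1 3 were lower and 3 higher (median -0.12). None of 19 passed in cells with no gut UMI (median -0.22). CEBPA, a driver of hepatocyte maturation, had 67.9, 53.4 and 57.4 CPM on day 21 and 8.26 and 15.9 on day 34. It fell by 2.03 (SE 0.27, edgeR adjusted p 0.00084), and lost the call in cells with no gut UMI (edgeR adjusted p 0.20) and without SERPINA1 in the rule (edgeR adjusted p 0.067). ONECUT1 had 15.7, 13.8 and 16.4 CPM and then 33.0 and 35.9. It rose by 1.23 (SE 0.21, edgeR adjusted p 0.0032), lost the call without day 34 replicate 2 (adjusted p 0.082), and was -0.22 in cells with no gut UMI. PROX1 had 82.4, 96.4 and 85.3 CPM and then 175 and 154. It rose by 0.95 (SE 0.22, edgeR adjusted p 0.017), a call lost without day 21 replicate 1 (adjusted p 0.11) and without day 21 replicate 3 (0.081), and its value in cells with no gut UMI was 0.80 (adjusted p 0.11).

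Of 14 fetal liver genes tested, 1 of which reached the filter on day 34 only, 4 were higher and 2 lower (median -0.00). The lower calls became 0 without each day 21 replicate in turn, and 3 to 5 genes were higher in every fit that left out a library. DLK1 (chromosome 14, 100725705 to 100738224) had 15.5, 17.5 and 15.2 CPM on day 21 and 186 and 324 on day 34. In day 34 replicate 1, 72 of its 90 UMIs came from 2 cells. It rose by 4.07 (SE 0.25, edgeR adjusted p 1.8e-05) and passed in all 16 alternatives. Its day effect exceeded that in the other kept cells by 3.06 (edgeR adjusted p 0.0015), where it had 88.1, 125 and 70.2 and then 231 and 146 CPM. At least 3 DLK1 UMIs were found in 21, 11 and 15 cells on day 21 and in 4 and 152 on day 34. IGF2 (chromosome 11, 2129112 to 2158391) had 77.7, 50.8 and 46.5 CPM and then 283 and 226, a rise of 2.18 (SE 0.27, edgeR adjusted p 0.00064). H19, the imprinted RNA beside it, rose by 2.12 (SE 0.29, edgeR adjusted p 0.0011), from 355, 423 and 467 to 1996 and 1430.4 CPM, and in cells with no gut UMI by 1.13 (adjusted p 0.058). The other kept cells also had higher levels of both on day 34, at 172 and 72.4 CPM against 43.1, 43.3 and 32.1 on day 21 for IGF2.

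Genes that were high in the gut-negative cells went in different directions between the days. Since day 34 values also enter the ratio by which they were picked, no count over them is given. RGS5, a regulator of G protein signalling, had 56.4, 35.0 and 58.1 CPM on day 21 and 2.06 and 4.63 on day 34 (a change of -3.52, edgeR adjusted p 0.00025). RELN had 142, 143 and 109.7 CPM and then 118 and 143, and the days overlapped. SPP1 had 199, 165 and 147 CPM on day 21 and 925 and 1292 on day 34. It rose by 2.76 (SE 0.26, edgeR adjusted p 0.00013), and 2 cells held 435 of its 448 UMIs in day 34 replicate 1. TTYH1 rose from 52.7, 48.8 and 33.4 to 118 and 213 CPM, by 1.98 (SE 0.27, edgeR adjusted p 0.001), and 2 cells held 40 of its 57 UMIs in that replicate. For SPP1 and TTYH1, every day 34 value lay above every day 21 value, and in cells with no gut UMI the values were 1.06 (adjusted p 0.18) and 0.75 (adjusted p 0.22). TESC, a calcium-binding protein, rose from 61.1, 31.9 and 47.2 to 188 and 213 CPM, by 2.17 (SE 0.27, edgeR adjusted p 0.00058), and passed in all 16 alternatives.

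Of 12 complement genes tested 6 were higher on day 34 and 0 lower (median 1.20), a count that rested on day 34 replicate 2. Without that library 0 passed and the median was 0.57, and 3, 4 and 3 passed without day 21 replicates 1, 2 and 3, 8 without day 34 replicate 1 and 1 with the replicate number as a block. The count was 2 of 6 tested in cells with no gut UMI, and at 10 UMIs and 1% 2 of 5. Of 5 acute phase genes tested 3 reached the filter on 1 day only, so no count of calls is given. CCL20, a chemokine (chromosome 2, 227805739 to 227817564), had 44.5, 38.1 and 61.9 CPM on day 21 and 161 and 266 on day 34. It rose by 2.23 (SE 0.27, edgeR adjusted p 0.00047), and its day effect exceeded that in other cells by 2.38 (edgeR adjusted p 0.0015). C3 had 105, 131 and 120.4 CPM and then 167 and 289.6. It rose by 1.02 (SE 0.25, edgeR adjusted p 0.021), but passed only without day 34 replicate 1 among the 5 fits that left out a library, with adjusted p 0.13, 0.054 and 0.092 without day 21 replicates 1, 2 and 3, and 0.18 and a value of 0.61 without day 34 replicate 2. CFI, complement factor I, had 2.05, 0.875 and 0.964 CPM and then 10.3 and 56.5. It reached the count filter on day 34 only, so no p-value is given for its rise of 4.99, which was 3.04 without day 34 replicate 2.

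Immediate early genes, which respond within minutes to stress and to tissue dissociation, were higher on day 34 in 11 of 12 tested, with a median of 1.95. ATF3 had 11.4, 8.88 and 13.6 CPM on day 21 and 217 and 129 on day 34. It rose by 3.95 (SE 0.29, edgeR adjusted p 7.1e-05). FOS had 227, 101 and 249.9 CPM and then 906 and 588, and rose by 2.03 (SE 0.37, edgeR adjusted p 0.0053). The summed level of the list in the other kept cells was 1354, 498 and 1354 CPM on day 21 and 4356 and 2750.2 on day 34. The level was thus higher on day 34 in the rest as well, and the difference of day effects for FOS was -0.03 (edgeR adjusted p 0.98). For 3 of the 12 genes, ATF3, FOSB and BTG2, the day effect was larger in SERPINA1/AFP cells, by 1.41, 1.43 and 0.67 (edgeR adjusted p 0.0019, 0.027 and 0.039). The longer trypsin step goes with day 34, and its part in the result was not tested.

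The counts of metabolic genes moved with single libraries and with the marker rule. Of 16 urea cycle and amino acid genes 7 were lower on day 34 and 0 higher (median -0.97). Without day 21 replicates 1, 2 and 3 the lower calls were 0, 3 and 1, without day 34 replicate 2 they were 1, and DESeq2 gave 2, while the median lay between -1.001 and -0.88 in the fits that left out a library. The lower calls were 2 without SERPINA1 in the rule (median -0.31), and in cells with no gut UMI 1 of 12 was (median -0.46). Of 19 sterol synthesis genes 5 were lower and 1 higher (median -0.59), with 0 lower without each day 21 replicate in turn and 9 lower without day 34 replicate 2 (median -1.24). In cells with no gut UMI (median -0.20) and at 10 UMIs and 1% (median -0.15), 0 were lower and 1 higher. Cytochrome and conjugation genes gave 4 lower and 2 higher of 16 (median -0.60), with 2 to 6 lower when 1 library was left out. Their median turned to 0.76 without SERPINA1 in the rule, with 1 lower and 2 higher. Fatty acid genes gave 3 lower and 3 higher of 18 (median -0.37), with 2 to 5 lower when 1 library was left out. Without SERPINA1 in the rule 0 were lower and 1 higher (median -0.04), and in cells with no gut UMI 0 of 13 passed either way (median -0.06). FABP1 (chromosome 2, 88122982 to 88128062) had 3259, 3945 and 3612 CPM on day 21 and 803 and 766 on day 34. In day 34 replicate 1, 362 of its 389 UMIs came from 2 of 23 cells, so most cells there lay far below the summed level. It fell by 2.13 (SE 0.32, edgeR adjusted p 0.0016), but in cells with no gut UMI by 0.25 (adjusted p 0.77) and without SERPINA1 in the rule by 0.64 (adjusted p 0.13). In the other kept cells it had 1083, 776 and 1117 CPM on day 21 and 0.835 and 18.6 on day 34, a steeper fall (difference 5.42, edgeR adjusted p 0.011). Those cells included fewer gut-like cells on day 34, as given for TSPAN8, and the part of this in the fall was not tested.

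The bile acid and transport list had 3 genes lower and 1 higher of 9. Its median was -1.70, but -0.43 without day 21 replicate 1, -1.08 without day 21 replicate 3 and -0.91 without day 34 replicate 2. In cells with no gut UMI 2 of these genes were tested (median 0.98). SLC51B, a subunit of the organic solute transporter of ileum and bile duct, had 19.5, 20.0 and 22.8 CPM on day 21 and 2.06 and 1.82 on day 34. It fell by 3.48 (SE 0.36, edgeR adjusted p 0.0002). Its partner SLC51A fell by 4.44 (SE 0.58, edgeR adjusted p 0.00079) and by 1.87 without day 34 replicate 2. SLC51A missed the threshold without SERPINA1 in the rule (adjusted p 0.059), at 10 UMIs and 1% (0.18) and with DESeq2 (0.077).

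CKB had 6805, 12501 and 5809 CPM on day 21 and 1870.1 and 484 on day 34, and 606 of its 906 UMIs in day 34 replicate 1 came from 2 cells. It fell by 2.73 (SE 0.61, edgeR adjusted p 0.014), a call lost without each day 21 replicate in turn (adjusted p 0.078, 0.051 and 0.063), with a value of -4.15 without day 34 replicate 1. Of 17 glycolysis and hypoxia genes 0 passed in edgeR, 4 had an unadjusted p under 0.05, and DESeq2 called 0. Without day 34 replicate 1, 11 were lower and 0 higher, and without day 34 replicate 2, 8 were higher and 0 lower. The median was -0.05 with all libraries, -1.91 without day 34 replicate 1 and 1.23 without day 34 replicate 2. The summed level of the list was 3869, 7409 and 4049.9 CPM on day 21 and 7677 and 1308 on day 34, so the libraries of 1 day differed more than the days did. Of 20 cell cycle genes 2 were lower and 0 higher (median -0.69). Without day 34 replicate 2, 11 were lower (median -1.88), 1 was lower without each day 21 replicate in turn, and 13 were lower without SERPINA1 in the rule.

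Some transcripts of other cell types were higher on day 34 in the summed counts, with large differences between its libraries. Of 7 genes of a VTCN1 and GABRP epithelium 4 were higher (median 1.503) and of 11 mesenchymal genes 3 (median 0.99). Without day 34 replicate 2 these medians were -0.59 and -1.26, each with 1 gene higher. Of the 13 basal and squamous genes 6 were tested, 3 of them only through their day 34 counts, and of the 6 neural genes 5 were tested, 3 of them likewise, so no count of calls is given for these lists. The summed basal and squamous level in SERPINA1/AFP cells was 45.7, 27.8 and 50.5 CPM on day 21 and 66.1 and 845 on day 34. In the other kept cells it was 136, 76.0 and 111 CPM on day 21 and 2472 and 4953 on day 34. The high value of day 34 replicate 2 thus sat beside the highest level in its other cells. KRT17, a basal keratin, had 0.758, 0 and 0.876 CPM on day 21 and 16.5 and 346 on day 34, with at least 3 UMIs in 0 of 23 and 123 of 549 cells. KRT5, another basal keratin, had at least 3 UMIs in 0 and 68 cells. For KRT6A, at 0 counts on day 21, the day 34 mean was at least 143-fold higher than the floor of 3 counts over the 3 libraries, and at least 89.7-fold higher in day 34 replicate 1 alone. That floor limits the day 21 side only, and the value of replicate 1 rests on few UMIs in 23 cells. Mesenchymal genes summed to 676, 549 and 535 CPM on day 21 and 648 and 1209 on day 34, so replicate 1 lay inside the day 21 range, against 3873, 4891, 4113, 7615 and 4018 in the other cells. The part of free RNA and of mixed cells in these levels was not tested.

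Several of the largest rises came from very few cells. CHGA, a granin of neuroendocrine cells, had 0.303, 0.125 and 0.175 CPM on day 21 and 1499 and 71.7 on day 34. SFTPB, a lung surfactant protein, had 0 counts on day 21 and 159 and 8.93 CPM on day 34, at least 912-fold higher than the floor of 3 counts over the day 21 libraries, and at least 97.0-fold higher in day 34 replicate 2 alone. SCGB3A2, an airway secretoglobin, had 6 counts over day 21 and 157 over day 34. It reached the count filter on day 34 only, so no p-value is given for its rise of 7.08. NAPSA, a lung aspartic protease, had 3 counts over day 21 and 35 over day 34. At least 3 UMIs of any of these 4 genes, grouped after their values were seen, were found in 0 of the 1578 cells pooled over day 21, and in 3 of 23 and 11 of 549 on day 34. Those cells held 832 of 832 and 638 of 651 UMIs of the 4 genes. Both day 34 libraries had such cells, and 6 of the 14 cells had fewer than 3 of the 5 markers. A count of 0 allows a share of up to 0.190% (3 cells of 1578), a limit that covers counting error only and not the spread between libraries.

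The day effect differed between SERPINA1/AFP cells and the other kept cells of the same libraries in 863 of 20706 genes (4.17%, edgeR interaction with library as a block, Benjamini-Hochberg). Relative to the other cells, 541 were higher in SERPINA1/AFP cells on day 34 (2.61%) and 322 lower (1.56%). The count was 344 without day 21 replicate 3, 526 without day 21 replicate 1, 574 without day 34 replicate 2 and 2186 without day 34 replicate 1. Of the 1767 genes called between the days, 354 also passed this test. Of the 1002 higher calls, 534 had a higher level in the other cells, while 99 of the 765 lower calls did. Since the other cells of day 21 include many just under the marker cut, their levels are not those of cells without liver transcripts. They also included more gut-like cells than those of day 34, so their day effects mix in a change of cell classes.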

How the data were processed

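Single-cell RNA of 5 ULA libraries was measured with 10x Genomics 3′ chemistry. The deposited files hold raw UMI counts per gene and barcode, not normalized, as whole numbers, per the file headers and values. Per the submitters' processing notes, Cell Ranger 3.0.2, bcl2fastq and Scanpy were used with GRCh38. The members and gene lists were chosen with earlier results of these data known. Counts were summed per library over SERPINA1/AFP cells, since cells of 1 library share a source, and CPM used TMM library sizes. UMI counts of 3′ ends were not divided by gene length. Days were compared with edgeR 4.0.16 (quasi-likelihood, filterByExpr, Benjamini-Hochberg, threshold 0.05) in R 4.3.3, checked on simulated data. DESeq2 1.42.0 was an alternative. Other alternatives changed the normalization, the count filter, the cell filter, the marker rule, the thinning and the libraries used. Doublets were kept in the main values. Scrublet in scanpy 1.11.5 marked the highest-scoring 0.8% per 1000 barcodes for an alternative. Gene positions came from GENCODE 44. Named genes were the 12 largest called changes in each direction with no overlap, at least 10 CPM and at least 1.5 times the level of other cells, the 4 largest without that ratio, up to 4 genes per list, the 6 largest called differences in each direction, the 25 most abundant genes, the 15 with the highest ratio and the 12 largest of the gut split in each direction. Of these 172, only those that carry a result are described. The marker genes were given no test.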

Additional observations from a re-analysis of the deposited data

Results flagged for a closer look

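The day effect differed between SERPINA1/AFP cells and the other kept cells of the same libraries in 863 genes (edgeR interaction test, Benjamini-Hochberg). Values below are the log2 fold change in SERPINA1/AFP cells minus that in the other cells. Among genes that were relatively higher on day 34 in SERPINA1/AFP cells, SCGB3A2 had a difference of 6.42, OLFM4 of 4.67, CFI of 4.72 and FABP1 of 5.42. In SERPINA1/AFP cells, SCGB3A2, OLFM4 and CFI reached the count filter on day 34 only. FABP1 was lower on day 34 in both classes, and less so in SERPINA1/AFP cells. SAA1, an acute phase protein, had a difference of 7.73 from 2 counts over day 21 and 132 over day 34, with at least 3 UMIs in 21 of 549 cells of day 34 replicate 2 and in 0 of 23 cells of replicate 1. CCL4L2, a chemokine, had a fitted difference of 9.88, which depends on the prior count because SERPINA1/AFP cells had 0 counts on day 21, and its 130 counts on day 34 all came from replicate 2. Among genes that were relatively lower, IGFL2-AS1 had a difference of -3.23, TUBA4A (a tubulin) of -3.13, S100A2 (a basal epithelial calcium-binding protein) of -3.10, MALL of -3.09, PYGL (liver glycogen phosphorylase) of -3.03 and AQP3 (a water channel) of -2.79. S100A2 and AQP3 were higher on day 34 in both classes and rose further in the other cells.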

How the results depend on the processing

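The 1767 genes called between the days became 1008 with DESeq2, 2793 with no filter on low counts, 1147 with the stricter cell filter (at least 1000 genes and at most 10% mitochondrial counts, which left 87 cells in day 21 replicate 3), 583 at 10 UMIs and 1%, 1055 without AFP in the rule and 420 in cells with no gut UMI, and leaving out 1 library gave 618 to 3269. The share of higher calls was 56.7%, but 71.4% in cells with no gut UMI, 69.1% without day 21 replicate 1 and 46.9% without day 34 replicate 2. The 863 differences became 2168 with no filter, 393 with the stricter cell filter and 1549 without SERPINA1 in the rule, and leaving out 1 library gave 344 to 2186. With the replicate number as a block, 692 genes were called. Same-numbered libraries of the 2 days had correlations of deviations of -0.15 and -0.26 over 8649 genes. With 2 libraries on day 34 their deviations are exact opposites, so these values cannot show whether the numbers pair the libraries. For the difference of day effects the library itself was the block.

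Leaving out 1 library gave -8.39 to -4.50 points for the share of SERPINA1/AFP cells and -25.1 to -9.72 for the gut share, all below 0. Of 170 named genes with a fit, 95 were called. Among the 2608 alternative values of all 170, 111 gained a call, and changes of sign are not given for genes not called. The 1451 alternative values of called genes kept direction and side of the threshold in 1206, lost the call in 232 and changed sign in 13. In cells with no gut UMI the genes that changed sign were ANXA10 at 2.64, RBP4 at 0.25, ONECUT1 at -0.22 and ASL at 0.13. Without SERPINA1 in the rule, when day 34 replicate 1 holds 0 cells, they were PHGR1 at 0.57, TSPAN8 at 0.16, VTN at 0.14, APOA1 at 0.97 and RBP2 at 0.96, and at 10 UMIs and 1% RBP2 at 0.83. Leaving out 1 library gave FGL1 -5.98 to 4.01, MMP7 -6.96 to 6.28 and WNT6 -0.59 to 3.51, each lowest without day 34 replicate 2, which leaves the 23 cells of replicate 1 for that day. Apart from fewer cells and libraries, the cause was not tested. The alternatives that left out SERPINA1 or asked for 3 markers were chosen after seeing the data. Precision is limited by 2 libraries on day 34, of which 1 held 23 of the cells.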

Other observations

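Metallothioneins are small metal-binding proteins. Of 7 listed genes 4 were tested, 3 of them only through their day 34 counts, so no count of calls is given. MT2A had 2.50, 1.75 and 1.31 CPM in SERPINA1/AFP cells on day 21 and 134 and 51.4 on day 34. It rose by 5.47 (SE 0.43, edgeR adjusted p 8e-05 with Benjamini-Hochberg adjustment), with at least 3 UMIs in 1 of 23 and 17 of 549 cells, and 63 of its 65 UMIs in day 34 replicate 1 came from 2 cells. In the other kept cells it stood at 29.6, 60.4 and 28.3 CPM and then at 629.8 and 208, and the difference of day effects was 2.17 (edgeR adjusted p 0.0042).

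SOX2, a stem cell and foregut factor, had 5.83, 3.88 and 6.40 CPM in SERPINA1/AFP cells on day 21 and 66.1 and 21.3 on day 34. It rose by 2.67 (edgeR adjusted p 0.0028), and by 1.19 in cells with no gut UMI (adjusted p 0.23). CXCL8, a neutrophil chemokine, had 2.20, 0.375 and 2.80 CPM on day 21 and 24.8 and 93.2 on day 34, and rose by 5.21 (SE 0.48, edgeR adjusted p 9.7e-05).

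Within SERPINA1/AFP cells of 1 library, the thinned number of gut UMIs had a Spearman correlation with that of SERPINA1 of -0.34, -0.35 and -0.30 on day 21 and -0.49 and -0.19 on day 34 (604, 359, 570, 22 and 529 cells). With AFP it was 0.07, 0.18 and 0.15 on day 21 and -0.23 and 0.30 on day 34. SERPINA1 and AFP are part of the sum that chose the cells, so a cell low in one had to be high in another marker. The cells also share a library and a fixed depth of 3000 UMIs, and these values are descriptions and no independent finding.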
